A study of Mus musculus with 7 samples.

Results

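The genes described here are 35 mouse genes of spermiogenesis, the stage at which a round haploid germ cell becomes a sperm. They were chosen by name, as protamine, transition protein, acrosome, sperm tail and spermatid regulator genes. Each gene was read from its brightest probe set, by the mean over a table's arrays, out of those annotated to it alone. All 35 had a probe set among the 18193 genes of the table that holds the Sertoli and TM4 arrays, and 22 had one among the 8251 genes of the testis table. By role they comprised 5 spermatid chromatin genes, 8 genes of the acrosome and sperm head, 13 tail genes and 9 kinases and regulators.

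RNA was measured on 7 Affymetrix arrays, 1 for each group, in a study titled for the loss of germ stem cells in mice that lack ERM. ERM is the ETS family transcription factor encoded by Etv5. The groups were whole testis of ERM knockout and wild type mice at 4 weeks, and primary Sertoli cells of ERM knockout mice at 10 weeks, of ERM knockout mice at 4 weeks and of wild type mice at 4 weeks. The others were the TM4 cell line, derived from mouse Sertoli cells, with transfection of ERM and without it. The strain, the part of Etv5 removed, the purity of the Sertoli cells and the number of animals pooled are not given in the labels. With 1 array a group there was no replicate, no test and no p-value, and every difference below is between arrays as labelled.

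In a round spermatid the histones are first replaced by transition proteins and then by arginine-rich protamines, which pack the DNA into the sperm head. At the same time the Golgi builds the acrosome, a vesicle of enzymes and egg-binding proteins, and a centriole grows the tail, with its dense fibres, fibrous sheath and mitochondrial sheath. Many of these genes are transcribed early, under the activator CREM, and their messages are stored until the spermatid elongates. Sertoli cells nurse these germ cells and are not known to build sperm structures themselves, so the signal of such genes in a Sertoli cell preparation has to be read beside that of germ cell markers.

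Promoter sequence was available in RefSeq (GRCm38.p6) for 30 of the 35 genes. Since CREM binds cyclic AMP response elements, the 250 bases before each start were searched for the full element TGACGTCA, for the shorter form TGACG, and for the relaxed form TGANNTCA, each on both strands. The full element, which is also counted under the other forms, stood in 1 of 30 genes (Izumo1), and in 1.77% of the 27025 genes with a promoter. The shorter form stood in 7 of 30 (23.3%), against 19.8% of all genes. The relaxed form was chosen after the promoters below had been seen. It stood in 15 of 30 (50%), against 13.5% of all genes. Such a match describes the letters only. The 160 bases just before the start of 5 genes that were lower at 10 weeks are printed, 5′ to 3′, with TGANNTCA matches in capitals. Tnp2, Prm2 and Prm1 are shown because they lie beside each other on chromosome 16, with Prm3 among them, and Tnp1 and Akap4 because they lie elsewhere.
Prm1 (GRCm38.p6 chr16:10796824-10796983, minus strand): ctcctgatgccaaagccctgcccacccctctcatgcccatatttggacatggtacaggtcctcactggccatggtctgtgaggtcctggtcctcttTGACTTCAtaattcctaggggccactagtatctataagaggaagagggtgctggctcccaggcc
Prm2 (GRCm38.p6 chr16:10792106-10792265, minus strand): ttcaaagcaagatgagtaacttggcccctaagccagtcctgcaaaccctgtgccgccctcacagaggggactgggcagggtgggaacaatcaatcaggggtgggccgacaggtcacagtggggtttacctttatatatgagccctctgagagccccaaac
Tnp2 (GRCm38.p6 chr16:10788656-10788815, minus strand): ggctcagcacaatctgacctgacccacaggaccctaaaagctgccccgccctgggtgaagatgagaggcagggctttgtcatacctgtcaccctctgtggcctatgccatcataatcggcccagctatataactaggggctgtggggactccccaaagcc
Tnp1 (GRCm38.p6 chr1:73015900-73016059, minus strand): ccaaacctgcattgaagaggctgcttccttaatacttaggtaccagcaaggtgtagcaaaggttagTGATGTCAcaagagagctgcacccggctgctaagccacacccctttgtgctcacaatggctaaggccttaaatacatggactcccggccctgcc
Akap4 (GRCm38.p6 chrX:7067355-7067514, plus strand): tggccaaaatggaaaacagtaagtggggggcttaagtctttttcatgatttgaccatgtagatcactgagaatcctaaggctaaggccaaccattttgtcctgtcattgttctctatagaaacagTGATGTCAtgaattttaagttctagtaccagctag
Prm1, Tnp1 and Akap4 each hold 1 match in the window shown, and Prm2 and Tnp2 hold none.

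Arrays were brought to a common trimmed mean of 500, and a scaled intensity below a floor of 100 was treated as not measured. Where only 1 of the arrays compared fell below it, the log2 ratio is a bound. Scaled intensities are in arbitrary units and are compared between arrays for 1 probe set, not between genes. Between 72.0% and 77.0% of probe sets reached the floor on the Sertoli and TM4 arrays, and 82.1% and 82.2% on the testis arrays. For Etv5, the gene targeted, the brightest probe set read 995 on the 10-week knockout, 910.1 on the 4-week knockout and 709.9 on the wild type Sertoli array, and 473 with and 405 without ERM in TM4. No probe set of the testis table was named Etv5, and the probe sets could lie outside the deleted part, so Etv5 does not check the knockout labels. The 5′ probe set of 18S ribosomal RNA read 4551 on the 4-week knockout Sertoli array, far above all others. It read 352 on the 10-week knockout and 349 on the wild type array, and 342 with and 236 without ERM in TM4. The 4-week knockout array is also the reference in the comparison of the knockout ages. The part of this signal in the results was not tested. The spread between probe sets of the same gene was the only error estimate. It was taken from probe sets reading at least 500 on both arrays, and does not measure variation between arrays or animals. Its SD in log2 units ranged from 0.15 in TM4 to 0.25 in testis for the comparisons of like samples, and was 0.46 between Sertoli cells and TM4.

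On the Sertoli and TM4 arrays, members stood at or above the floor in 28 of 35 cases on the 10-week knockout array, in 32 on the 4-week knockout and in 32 on the wild type array. In TM4 they numbered 22 with and 21 without ERM. On 1 or more of the 3 Sertoli arrays, 32 of 35 members and 16106 of 18193 genes reached the floor, so reaching it does not set the members apart. The share of all genes on each single array was not counted. Izumo1, the sperm receptor for the egg, Spam1, the sperm hyaluronidase, and Spag6, of the central pair of the tail, were below the floor on all 5 arrays. Germ cell markers were measured on the same arrays. The germ cell helicase Ddx4 read 268 on the 10-week knockout, 2124 on the 4-week knockout and 3497 on the wild type Sertoli array, and 16.6 with and 55.1 without ERM in TM4. Of 31 meiotic spermatocyte genes, 18 stood at or above the floor on the 10-week knockout, 29 on the 4-week knockout and 31 on the wild type Sertoli array. Their summed level was 6929, 24361 and 34597 on these arrays in that order, and 6053 with and 6323 without ERM in TM4. Such sums include readings below the floor and weigh bright probe sets most, such as that of Ldhc, at 1172, 6741 and 10048. The median level of these genes was 121, 473 and 604 on the same Sertoli arrays. The summed level of 20 Sertoli cell genes differed less, at 90076, 98125 and 82949 on the same 3 Sertoli arrays. In these bulk samples, fewer germ cells and less RNA per germ cell cannot be told apart. The part of germ cell content in the results on Sertoli cells was not tested.

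**Figure D1:**
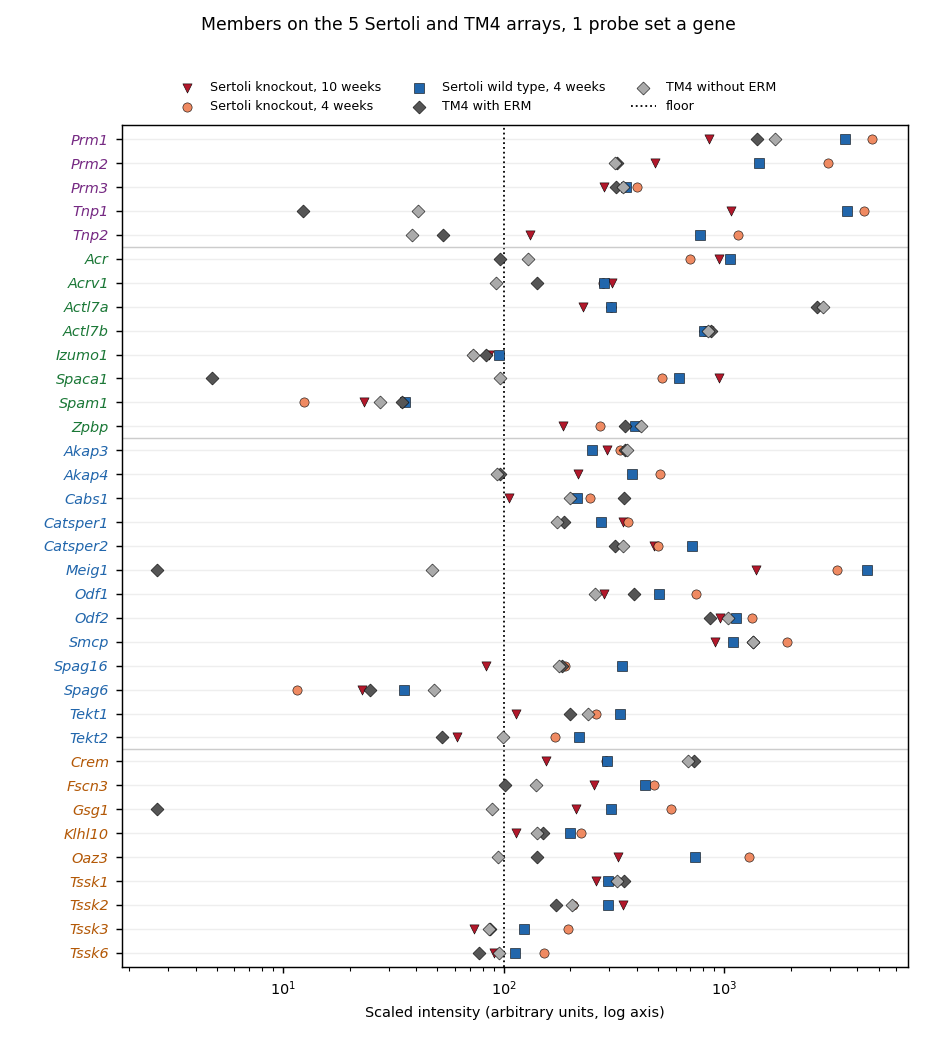
Scaled intensity (log axis, arbitrary units) of the 35 members on 3 Sertoli and 2 TM4 arrays, 1 probe set a gene and 1 point an array, with gene names coloured by role and the floor of 100 dotted. The points of Prm2, Tnp1, Tnp2, Meig1 and Oaz3 for both 4-week Sertoli arrays lie to the right of those for the 10-week knockout and for TM4, while those of Actl7b lie on top of each other.

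Comparing the wild type Sertoli array with untransfected TM4 shows which members had more signal in the primary cells than in a Sertoli-derived line. The differences between these arrays were wide in general, with 17.8% of 16916 genes past 2-fold upward in wild type Sertoli cells and 16.1% past it downward. Of 32 members measured, 14 were higher by at least 2-fold and 2 were lower by as much, with a median log2 ratio of 0.81, against -0.08 for all genes. Meig1, which works in the transport of cargo along the spermatid manchette, read 4426 in wild type Sertoli cells and 47.2 in TM4, at least 44.3-fold higher. Tnp1, the first transition protein, read 3580.1 in wild type Sertoli cells and 40.8 in TM4, at least 35.8-fold higher. Both TM4 readings were below the floor. Acr, the acrosin protease of the acrosome, was 8.25-fold higher in wild type Sertoli cells (1062 against 129 in TM4), and Tnp2, the second transition protein, at least 7.71-fold higher (771 against 38.3). Oaz3, the polyamine regulator of spermatids, was at least 7.33-fold higher, and Spaca1, a membrane protein of the acrosome, at least 6.22-fold higher. Prm2, the second protamine, was 4.49-fold higher (1439 in wild type Sertoli cells and 320.4 in TM4), and Fscn3, an actin bundler, 3.14-fold. Akap4, of the fibrous sheath, was at least 3.79-fold, the germ cell gene Gsg1 at least 3.06-fold, Acrv1, of the acrosomal matrix, at least 2.84-fold and the microtubule protein Tekt2 at least 2.18-fold higher. Nearest to the threshold, Prm1 was 2.07-fold and the calcium channel gene Catsper2 2.06-fold higher, and Odf1, of the outer dense fibres, lay just inside at a log2 ratio of 0.97. Both 4-week Sertoli arrays read at least 2-fold above both TM4 arrays for 11 members, against 13.2% of 17257 genes.

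Several members also gave signal in TM4. Actl7a, an actin-like protein of the spermatid head, read 307 in wild type Sertoli cells and 2796 in TM4, 9.10-fold lower in the Sertoli cells. Its coding neighbour Actl7b, of the same family, read 804 in wild type Sertoli cells and 845 in TM4. Crem read 294 in wild type Sertoli cells and 681 in TM4 on its brightest probe set, with a log2 ratio of -1.21, and its other probe sets had log2 ratios of -0.02 and 1.32 and a bound of 0.82. Crem is also transcribed in many somatic tissues, as is Odf2, whose product sits at the centriole as well as in the outer dense fibres. Odf2 read 1127 in wild type Sertoli cells and 1035 in TM4, and its 5 probe sets ranged from -0.61 to 1.49 (log2). Smcp, of the mitochondrial capsule, read 1091 and 1344 on these arrays in the same order, and Prm3 358 and 346.

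Probe sets of the same gene could differ widely in TM4. Prm1, the first protamine, read 3525, 3554 and 3489 on its 3 probe sets in wild type Sertoli cells. In untransfected TM4 the same probe sets read 1701, 510.0 and 21.5. The log2 ratios of Sertoli cells over TM4 were thus 1.05 and 2.80 on the first and second, with a bound of 5.12 on the third. All 3 carry the suffix by which Affymetrix marks probes that can match other transcripts. The brighter Tnp1 and the brightest Oaz3 probe set carry it too, and the Tnp2 probe set carries a related one. The dimmer Tnp1 probe set, without such a suffix, read 1633 in wild type Sertoli cells and 290.3 in TM4, where the brighter one lay below the floor. In both genes, the Sertoli signal exceeded the TM4 signal on every probe set. Akap3, Oaz3 and Odf1 had probe sets of opposite sign, with Akap3 at -0.52 and a bound of 1.56, Oaz3 between -0.25 and a bound of 2.87, and Odf1 between -0.11 and 0.97.

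**Figure D2:**
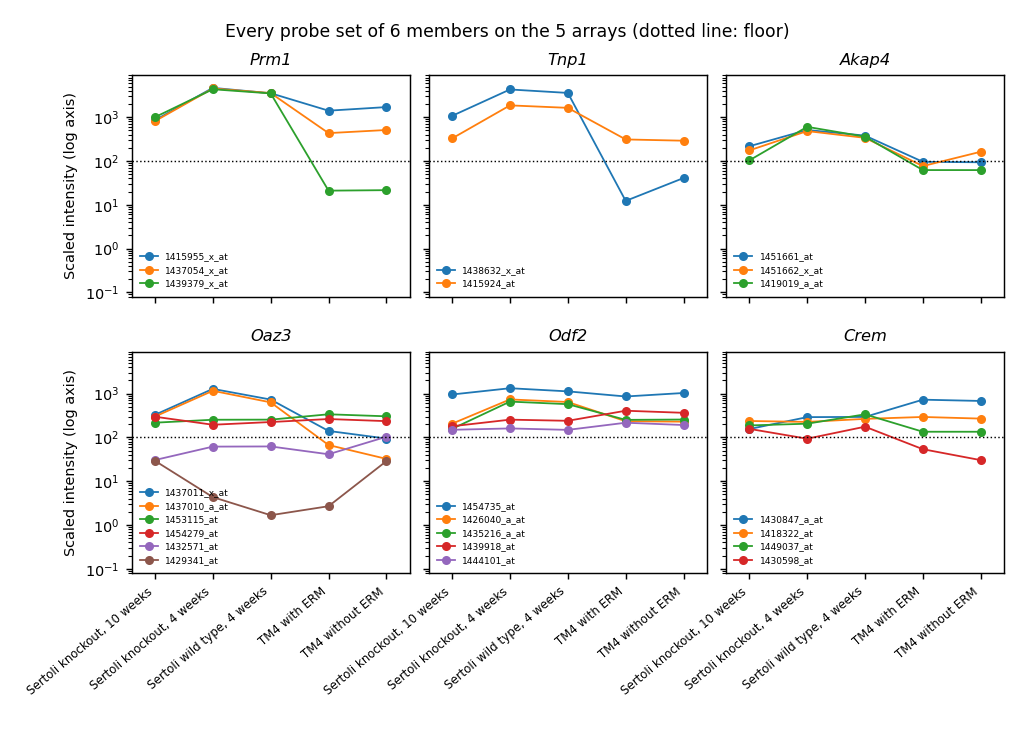
Scaled intensity (log axis) of every probe set of Prm1, Tnp1, Akap4, Oaz3, Odf2 and Crem on the 5 arrays, with a line joining the readings of 1 probe set and the floor of 100 dotted. The drop of Prm1 from the Sertoli arrays to TM4 differs between its 3 lines, and between the knockout ages the log2 ratios range from -2.07 to -0.10 for Odf2 and from -1.97 to 0.61 for the measured probe sets of Oaz3.

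At 10 weeks the knockout Sertoli array had lower signal for most members than the knockout array at 4 weeks, above all for the genes of chromatin packing. Of 32 members measured, 12 were at least 2-fold lower at 10 weeks and none at least 2-fold higher. Among all 15849 genes measured, the shares were 3.51% lower and 4.19% higher. The median log2 ratio was -0.91 for the members and -0.03 for all genes. Below 0 lay 27 members and above 0 lay 5, where 53.2% and 46.8% of all genes lay on these sides.

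Among the chromatin genes, 4 of 5 were at least 2-fold lower at 10 weeks. Tnp2 read 132 on the 10-week and 1157 on the 4-week knockout array, 8.76-fold lower. Prm2 read 484 at 10 weeks and 2955 at 4 weeks, 6.10-fold lower. Prm1 read 853 at 10 weeks and 4676 at 4 weeks, 5.48-fold lower, and the log2 ratios of its 3 probe sets were -2.46, -2.48 and -2.12. These drops were many times the spread between probe sets. Tnp1 read 1072 at 10 weeks and 4295 at 4 weeks, 4.01-fold lower, and its dimmer probe set had a log2 ratio of -2.51. Prm3, a small acidic protein encoded between Tnp2 and Prm2, stood apart from its neighbours at 285 at 10 weeks and 403 at 4 weeks, a log2 ratio of -0.50. Its readings of 322 with and 346 without ERM in TM4 lay within the range of the Sertoli arrays. Whether the 10-week readings lay above TM4 depended on the probe set. The brightest Prm1 probe set read 853 at 10 weeks, against 1408 with and 1701 without ERM in TM4, while the third read 1001 at 10 weeks and was below the floor in TM4. The brighter Tnp1 probe set read 1072 at 10 weeks and was below the floor in TM4, and the dimmer one read 328 at 10 weeks, against 310.2 with and 290.3 without ERM.

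The tail genes came next, with 6 of 12 measured members at least 2-fold lower and all 12 below 0. Odf1, a major protein of the outer dense fibres, read 285 at 10 weeks and 745 at 4 weeks, 2.61-fold lower. Its other 2 probe sets were below the floor at 10 weeks. Akap4, the main anchor protein of the fibrous sheath, read 217 at 10 weeks and 510.5 at 4 weeks, 2.36-fold lower. Its 3 probe sets gave -1.24, -1.47 and -2.55 (log2). Cabs1, a calcium-binding protein of elongate spermatids, was 2.34-fold lower, and Meig1 was 2.33-fold lower (1394 at 10 weeks against 3242 at 4 weeks). The microtubule protein Tekt1 was 2.32-fold lower, and Smcp 2.12-fold lower (908 against 1930). At 10 weeks Cabs1 read 105 and Tekt1 113, just above the floor. In TM4, Cabs1 read 352 with and 199.8 without ERM, Tekt1 199.9 and 241, Odf1 391 and 259, and Smcp 1350 and 1344. Meig1, and Akap4 on its brightest probe set, were below the floor there.

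The remaining tail genes lay within 2-fold on their brightest probe set, but for some the choice of probe set mattered. Odf2 had a log2 ratio of -0.48 on its brightest probe set, which also read 861 with and 1035 without ERM in TM4. On the 2 next in brightness its log2 ratios were -1.84 and -2.07, and on the other 2 they were -0.50 and -0.10. Akap3, the partner of Akap4 in the fibrous sheath, had -0.20 on 1 probe set and a bound of -1.82 on the other. The calcium channel genes Catsper1 and Catsper2 were each at -0.07, with -0.27 on the other Catsper2 probe set. The spread between probe sets was 0.245 (SD) in this comparison. Spag16 of the central pair and the microtubule protein Tekt2 were below the floor at 10 weeks, with bounds of -0.92 and -0.77.

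Of the acrosome and sperm head genes, 6 were measured. None was past 2-fold, and 4 lay above 0. Spaca1 read 949 at 10 weeks and 523 at 4 weeks, 1.81-fold higher and the highest ratio of any member in this comparison. Acr read 945.4 at 10 weeks and 699.6 at 4 weeks. Both were therefore higher at 10 weeks, and both had low signal in TM4 (95.8 for Spaca1 and 129 for Acr without ERM). Acrv1 and Actl7b differed by 0.13 and 0.07. Zpbp, a protein that binds the egg coat, was at -0.56 and Actl7a at -0.42.

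Of the 9 kinases and regulators, 2 were at least 2-fold lower at 10 weeks. Oaz3 read 329 at 10 weeks and 1286 at 4 weeks, 3.91-fold lower. Its second probe set had a log2 ratio of -1.95. However, 2 further Oaz3 probe sets, which read between 195 and 338 on all 5 arrays, were at -0.22 and 0.61. Gsg1 read 213 at 10 weeks and 571 at 4 weeks, 2.69-fold lower. Klhl10, an adaptor of a ubiquitin ligase in spermatids, was the member just inside 2-fold (-0.99), whereas Smcp (-1.09) lay just beyond it. Fscn3 was at -0.91, and Crem at -0.90 on its brightest probe set, with -0.13, 0.07 and a bound of 0.65 on the others. Among the testis-specific kinases, Tssk2 was at 0.76, although its neighbour Tssk1 was at -0.32. Tssk3 and Tssk6 were below the floor at 10 weeks, with bounds of -0.96 and -0.60.

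**Figure D3:**
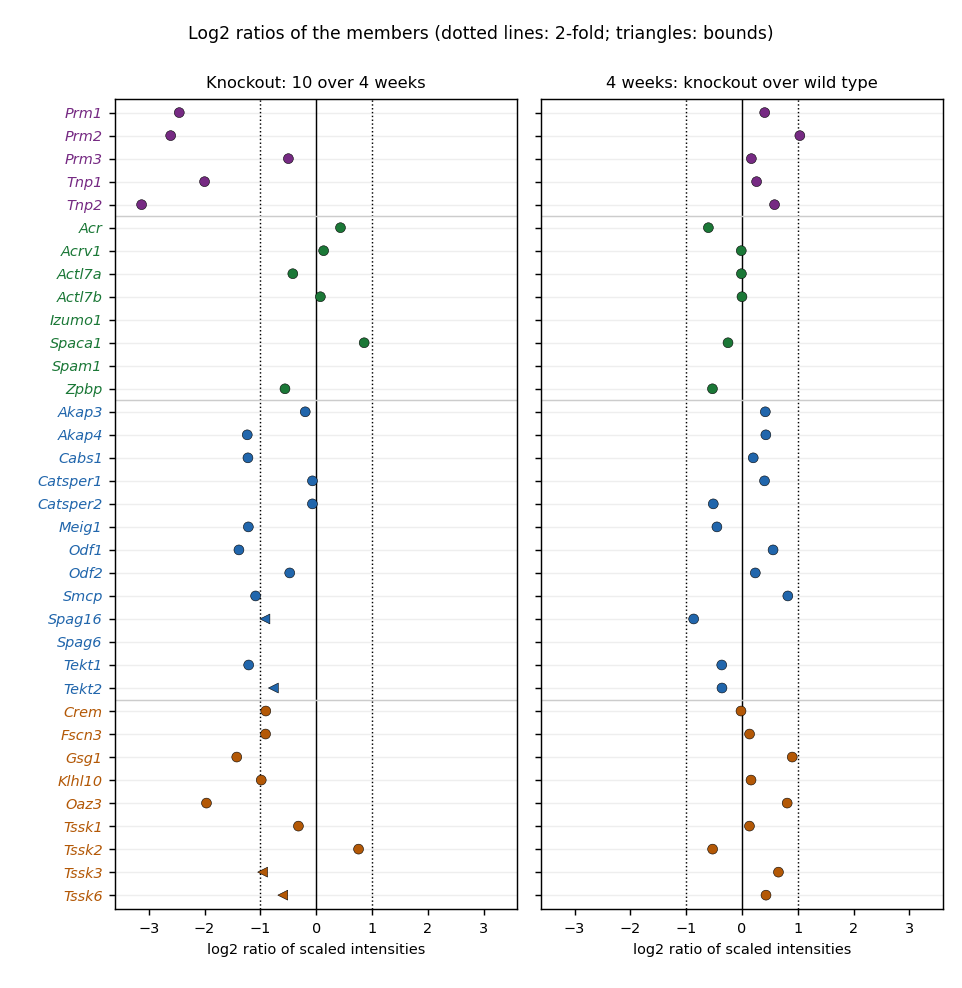
Log2 ratio of each member for knockout Sertoli cells at 10 over 4 weeks (left) and for knockout over wild type at 4 weeks (right), coloured by role, with 2-fold dotted, bounds as triangles and no point for a gene below the floor on both arrays. At 10 weeks Tnp2, Prm2, Prm1 and Tnp1 lie lowest, with Tnp2 at -3.13, while Spaca1 lies at 0.86, and at 4 weeks Prm2 alone lies past 2-fold.

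Other spermatid genes, from a separate list, were also lower at 10 weeks, with 16 of 42 measured at least 2-fold lower and 1 at least 2-fold higher (median log2 ratio -0.48). Spata4 read 225 at 10 weeks and 2169.5 at 4 weeks, a log2 ratio of -3.27. Pdha2, the germ cell subunit of pyruvate dehydrogenase, had a bound of -3.04, Fabp9 was at -2.80 and Ropn1l at -2.47. Meiotic spermatocyte genes were lower as well, 16 of 29 by at least 2-fold (median -1.12). Genes of the spermatogonial list were mixed. Of 17 measured, 5 were at least 2-fold lower, with Mael, Ddx4 and Dazl lowest at -3.04, -2.98 and -2.94. Ddx4 was used above as a marker of germ cells in general, so these drops do not stand for spermatogonia alone. However, 6 lay above 0, up to 0.72 (median -0.52). Sertoli cell genes had a median of -0.10, with 1 of 20 at least 2-fold lower. Leydig cell genes had a median of 0.69, with 6 of 6 above 0 and Cyp17a1, an enzyme of androgen synthesis, at 1.69. Of 11 macrophage genes 3 were at least 2-fold higher (median 0.25), with the protease Ctss at 1.97. The part of these cells in the members' ratios was not tested.

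The age and the genotype of the 10-week array can be set beside the wild type array only at another age, since no wild type array at 10 weeks was analysed here. Against the wild type Sertoli array at 4 weeks, 11 of 32 members were at least 2-fold lower on the 10-week knockout array and none at least 2-fold higher. The shares of all 15911 genes were 4.22% and 1.62%. Tnp2 was 5.84-fold, Prm1 4.14-fold, Tnp1 3.34-fold and Prm2 2.97-fold lower. Meig1 was 3.17-fold lower (1394 on the 10-week knockout array and 4426 on the wild type array), and Spag16 at least 3.45-fold lower. Tekt1 was 2.98-fold, Oaz3 2.23-fold, Zpbp 2.13-fold and Cabs1 2.03-fold lower, and Tekt2 at least 2.18-fold lower. The other measured Oaz3 probe sets were at -1.08, -0.23 and 0.40. Akap3 was at 0.22 with a bound of -1.56, Catsper2 at -0.58 and 0.26, and the Odf2 probe sets lay between -1.87 and 0.01, so these too had no settled direction. Spaca1 was 1.53-fold higher, within 2-fold. The 10-week knockout array lay below both 4-week arrays for 25 of 32 members, against 37.1% of 16106 genes, and above both for 4, against 32%. This comparison shares an array with each of the other Sertoli comparisons of the knockout.

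At 4 weeks the knockout and wild type Sertoli arrays differed little for the members, with role medians of 0.41 for chromatin, -0.13 for acrosome, 0.22 for tail and 0.16 for kinase and regulator genes (log2). Prm2 was the 1 member of 32 past 2-fold, at 2955 in knockout and 1439 in wild type Sertoli cells, 2.05-fold higher. None was at least 2-fold lower. Past 2-fold upward lay 0.681% of all 15860 genes, and downward 3.18%. Above 0 lay 20 members and below 0 lay 12, where 48.2% and 51.8% of all genes lay on these sides. The median log2 ratio was 0.17 for the members and -0.02 for all genes. The spread between probe sets of 1 gene was 0.20 (SD).

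Within the list, all 5 chromatin genes lay above 0, with Tnp2 at 0.58 (1157 in knockout and 771 in wild type), Prm1 at 0.41, Tnp1 at 0.26 and Prm3 at 0.17. Next to Prm2 in size, and just inside 2-fold, came Gsg1 at 0.90 (571 in knockout and 306 in wild type). Smcp stood at 0.82 and Oaz3 at 0.81, with 0.88, -0.01 and -0.21 on the other measured Oaz3 probe sets. Odf1 was at 0.56, with 0.44 and 0.82 on its other probe sets. Akap4 was at 0.43, with 0.51 and 0.74. Prm2, Tnp2, Gsg1 and Smcp, each on 1 probe set, and Prm1, Odf1 and Akap4, each on 3, thus read more in the knockout cells. These ratios exceeded the spread of 0.20, whereas Prm3 lay within it and the direction of Oaz3 was not settled. Several of the readings, as for Odf1, Akap4 and Gsg1, were dimmer than those from which the spread was taken.

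Other members read less in the knockout cells. Spag16 was at -0.87 (189 in knockout and 345 in wild type), Acr at -0.60 (699.6 in knockout and 1062 in wild type), and Zpbp and Tssk2 at -0.53 each. Meig1 was at -0.45 (3242 in knockout and 4426 in wild type). Catsper2 was at -0.51 on 1 probe set and 0.53 on the other, so its direction was not settled. Of the 6 acrosome genes measured, 5 lay below 0, with a median of -0.13, and Actl7b was at 0.00.

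Earlier germ cell genes, and those of some somatic cells, lay lower in the knockout cells at 4 weeks. Meiotic spermatocyte genes had a median of -0.49, with 26 of 31 below 0 and 1 at least 2-fold lower. Tex15 was at -1.23, and Adam2, a sperm surface protein made from meiosis onwards, at -0.90. Spermatogonial genes had a median of -0.35, with 3 of 18 at least 2-fold lower. Of 12 macrophage genes 4 were at least 2-fold lower (median -0.87), with Ctss at -3.02, and fibroblast genes had a median of -0.57. The part of these cells was not tested. Other spermatid genes had a median of -0.25, with 31 of 42 below 0, where the median of the members was above 0. Among them Dpy19l2, needed to anchor the acrosome, was at -1.34, Spata3 at -1.06 and Gk2 at -0.94, while Hspa1l, a heat shock protein of spermatids, was at 1.11 (321 in knockout and 148 in wild type).

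**Figure D4:**
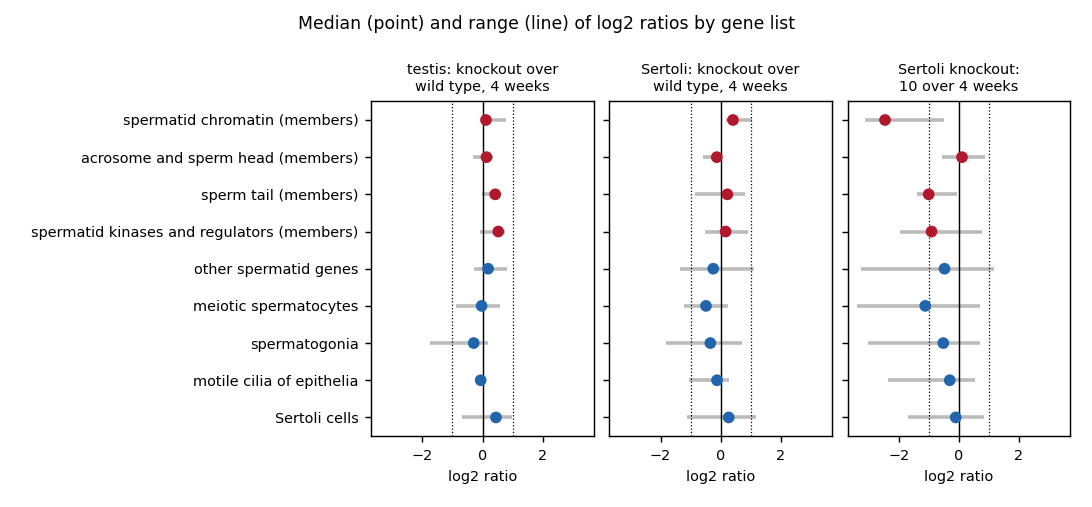
Median (point) and lowest to highest (line) log2 ratio of the members by role (red) and of other gene lists (blue) in testis, in Sertoli cells at 4 weeks and between the knockout ages, with 2-fold dotted. Between the ages the chromatin genes have the lowest median of the lists drawn (-2.46) and the acrosome genes one above 0 (0.10).

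In whole testis at 4 weeks the signal of the members was nearly the same in both genotypes, or moderately higher in the knockout. Of 22 members measured, all were within 2-fold. Past 2-fold lay 0.532% of 7515 genes upward and 0.852% downward. The median log2 ratio was 0.28 for the members and -0.01 for all genes. The spread between probe sets of 1 gene was 0.25 (SD). Above 0 lay 19 members, where 47.9% of all genes did, and below 0 lay 3, where 52.1% did.

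Prm3 had the highest testis ratio, at 5741 in knockout and 3360.1 in wild type (log2 ratio 0.77, just inside 2-fold), with 0.89 on a second probe set. Tssk1 followed at 0.74 (2023 in knockout and 1211 in wild type), then Akap4 at 0.58 (4287 in knockout and 2871 in wild type). Gsg1 and Oaz3 were at 0.52 each, Odf2 at 0.50, Smcp at 0.46 and Tekt2 at 0.42. Signal of these tail and regulator genes was therefore higher in the knockout testis by less than 2-fold.

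The other chromatin genes had testis ratios near 0. Prm1 read 13053 in knockout and 12857 in wild type testis, and Tnp2 12981 and 11834 in the same order. On the same arrays the top probe set of all read 15212 and 15722. How far these readings were limited by the range of the scanner was not tested. Tnp1 was at 0.11 (8087 in knockout and 7506 in wild type), Prm2 at 0.11 and Odf1 at 0.23. Acr, at 1607 in knockout and 1999.8 in wild type, was the lowest at -0.32. Tekt1 was at -0.01 and Crem at -0.09. Acr also lay below 0 in the Sertoli cells at 4 weeks.

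Of 21 members measured in both tissues, 13 lay above 0 in knockout over wild type in testis and in Sertoli cells, 5 lay above 0 in testis only, and 3 (Acr, Tekt1 and Crem) below 0 in both. Of 6907 genes measured in both, 27.4% lay above 0 in both. Other spermatid genes in testis had a median of 0.18 with 14 of 18 above 0, led by Hspa1l at 0.80 and Capza3, an actin capping subunit of sperm, at 0.60. Meiotic genes had a median of -0.03, near the -0.01 of all genes, and spermatogonial genes one of -0.29, with Dazl at -1.76. Sertoli cell genes had a median of 0.44, with a summed level of 24587 in knockout and 19104 in wild type testis. Fibroblast genes had a median of 0.35, with 7 of 7 above 0 and Pdgfra at 1.18 and Dcn at 1.03. Of 13 macrophage genes 11 lay above 0 (median 0.20), and Leydig cell genes one of 0.24. The part of cell makeup in the testis ratios was not tested.

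**Figure D5:**
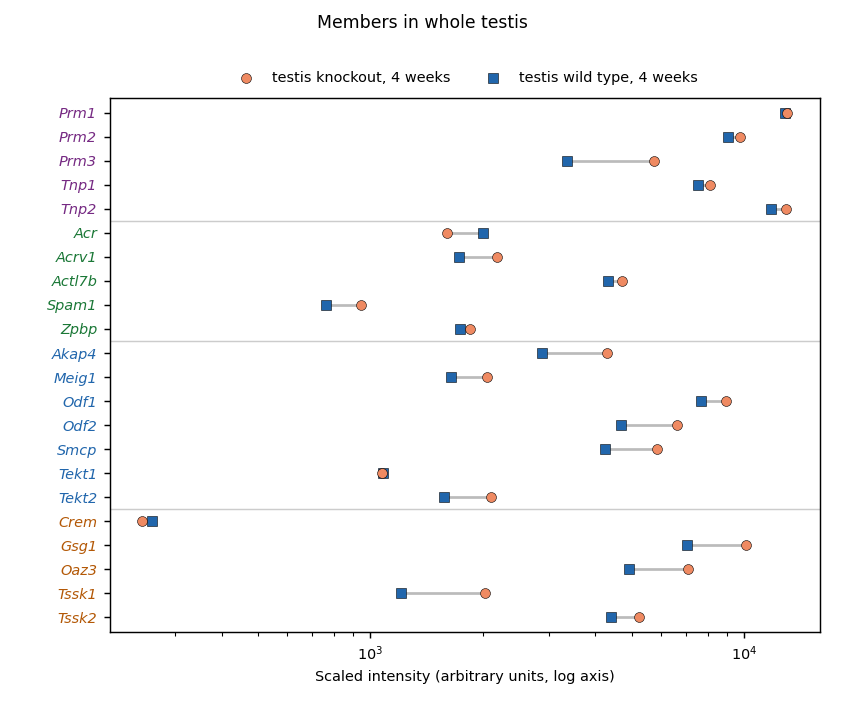
Scaled intensity (log axis, arbitrary units) of the 22 members with a probe set in the testis table, in knockout testis (circles) and wild type testis (squares) at 4 weeks, 1 array each. Prm3 and Tssk1 have the widest gaps (5741 against 3360.1 and 2023 against 1211), and Acr is higher in wild type.

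In TM4 cells no member was at least 2-fold higher or lower with ERM than without it, among 23 measured. The shares of all 16158 genes were 0.303% and 0.421%. The median log2 ratio was 0.01, with 12 members above 0 and 11 below, where 50.8% and 49.2% of all genes lay. Cabs1 was the farthest from 0, at 352 with ERM and 199.8 without it (0.82). Odf1 was at 0.59 on 1 probe set and had a bound of -0.41 on another, so it had no settled direction. Probe sets of Oaz3 (-0.05 to 0.49, both bounds), Odf2 (-0.26 to 0.17) and Spag16 (-0.15 to 0.25) also lay on both sides of 0. Actl7a was high on both arrays, at 2642 with and 2796 without ERM. Prm1 was at -0.27 and -0.24 on the 2 probe sets measured there, and Crem at 0.10. Etv5 itself read 473 with and 405 without ERM on its brightest probe set. Its other probe sets read 475 with and 314 without ERM, and 211 with and 187 without it. How far ERM was raised on the transfected array was not tested.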

How the data were processed

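RNA of 7 samples, 1 array a group, was measured on 2 Affymetrix mouse array designs. The deposited values are 1 linear intensity per probe set and sample, with a lowest value of 1. The sources used here do not give how the authors computed or scaled them, or with which software.

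Probe sets were named from GEO's platform annotation, updated through RefSeq gene IDs, and kept if they had exactly 1 gene (10833 of 12422 on the testis design and 34945 of 45037 on the other). Each array was scaled to a trimmed mean of 500 (2nd to 98th percentile). Intensities were raised to a floor of 100, which is 0.2 of the trimmed mean, before log2 ratios were taken, and genes below it on both arrays had no ratio. A gene was read from its probe set with the highest mean. With 1 array a group no test could be run, and genes past 2-fold were counted beside the same count over all genes. The computation was tested on simulated data, with changes placed only in bright genes. How well changes are recovered near the floor was not tested.

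All members could be named. Named in full were those past or nearest to 2-fold, the protamine and transition protein genes, and those whose probe sets disagreed. Of the other lists, the genes named are among the 4 with the widest ratio in a comparison. The members and lists were chosen with earlier results of these data known. The 7 alternatives planned and 1 added later are given in the closing section. Tools were Python 3.11.15, numpy 2.4.6, pandas 2.3.3 and matplotlib 3.10.9.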

Additional observations from a re-analysis of the deposited data

Results flagged for a closer look

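Prm2 was the member whose knockout over wild type log2 ratio in Sertoli cells was past 2-fold in opposite directions at the 2 knockout ages, at 1.04 at 4 weeks and -1.57 at 10 weeks. Both ratios use the same wild type array at 4 weeks, and Prm2 had 1 probe set. Its readings were 484 on the 10-week knockout, 2955 on the 4-week knockout and 1439 on the wild type array. The difference between the ages was not tested.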

How the results depend on the processing

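Of 170 values recomputed under the alternatives, 163 moved by less than the spread between probe sets (medians) or by at most 1.5 times (counts), and 7 by more. Some of the 163 could not move, since all 22 members in testis read above every floor tried. The 163 are therefore no measure of how stable the results are. The median in TM4 with over without ERM, 0.01, turned to -0.03 with a floor at 0.4 of the trimmed mean, so it has no direction. No other median changed sign. With values as deposited, no member was at least 2-fold higher in knockout over wild type Sertoli cells at 4 weeks (0, against 1 as scaled). The same setting gave a median of 1.36 for wild type Sertoli cells over TM4, against 0.81, with 1 member at least 2-fold lower, against 2. The mean over probe sets also left 1 and gave a median of 0.53, and the floor at 0.4 gave 0.54. Members at least 2-fold higher in this comparison numbered between 10 and 20, against 14. With a floor at 0.4 of the trimmed mean, the median at 10 over 4 weeks was -0.46, against -0.91, the 10-week knockout had 6 members at least 2-fold lower than wild type, against 11, and 14 members reached the floor in TM4 with ERM, against 22. A higher floor shortens ratios of dim genes by construction. Reading each gene from the probe set with the lowest TM4 signal, an alternative chosen after seeing the data, gave 12 members at least 2-fold lower at 10 over 4 weeks, the same number as reported. No paired analysis was possible because each group has 1 array. With no replicate, the spread between animals is unknown.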

Other observations

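Some genes named for the spermatid gave more signal in the TM4 line than in primary Sertoli cells, but most of the list did not. Of 43 other spermatid genes measured, 26 read more in wild type Sertoli cells and 17 in untransfected TM4 (median log2 ratio 0.29). A 2-fold gap in favour of TM4 was seen for 8 of them, and in favour of the Sertoli cells for 13. The corresponding shares of all 16916 genes were 16.1% and 17.8%, so the list held no clear excess on the TM4 side. Iqcf1 read 84.2 on the 10-week knockout, 115 on the 4-week knockout and 117 on the wild type Sertoli array, against 2317 with and 1942 without ERM in TM4. Catsper3, of the sperm calcium channel, read 128, 142 and 153 on the same 3 Sertoli arrays, against 2069 with and 1738 without ERM in TM4. Ccin, of the sperm head calyx, read 181, 95.1 and 150.3 on them, against 1276 with and 1262 without ERM. Catsper3 and Ccin were chosen after their values were seen. Each was read from 1 probe set, and whether these probe sets detect the named transcript in TM4 was not tested.

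Genes of motile cilia, which share parts with the sperm tail, had a median log2 ratio of -0.30 in knockout Sertoli cells at 10 over 4 weeks, with 4 of 14 at least 2-fold lower. Rsph1, of the radial spoke, read 476 at 10 weeks and 2433 at 4 weeks. Ccdc39 was at -1.85, and Dynlrb2 and Cfap52 had bounds of -1.96 and -1.47. Foxj1, the activator of motile cilia genes and chosen after its values were seen, read 1538 at 10 weeks and 1262 at 4 weeks in knockout cells.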
